A study of Mus musculus with 6 samples.

Results

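The 10 genes described here encode MHC class I molecules and the proteins that load them with peptide, and were taken by their symbols from the 28208 genes that were listed for all 6 kidneys. They were 2 classical heavy chains (H2-K1 and H2-D1), 5 other heavy chains (H2-Q4, H2-Q6, H2-Q7, H2-T22, and H2-T23), the light chain B2m, the peptide transporter subunit Tap1, and tapasin (Tapbp). Their levels were compared in single cells of 6 mouse kidneys, 2 each of the naive, rejecting, and tolerized group, with 1 library per kidney. Values given as with rejection or with tolerance are those of the rejecting and tolerized kidneys, in the order of their numbers. Naive kidneys were untransplanted kidneys of C57BL/6 (B6) mice aged 10 to 12 weeks. Rejecting kidneys were kidneys of BALB/c mice, 6 to 7 weeks old, that had been placed in untreated B6 male recipients whose own kidneys had both been removed. Tolerized kidneys were transplanted in the same way, and their recipients had also been given BALB/c splenocytes treated with ethylenecarbodiimide (ECDI) intravenously 7 days before and 1 day after transplantation. Both kinds of graft were taken on day 15, and the labels give the sex of each sample as male, whereas the design text allows donors of either sex. No transgene was involved, and donor and recipient differed at the whole MHC.

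A class I molecule consists of a heavy chain, β2-microglobulin, and a short peptide cut from proteins inside the cell, and it shows that peptide to CD8 T cells. The peptides are pumped into the endoplasmic reticulum by the transporter of which Tap1 is a subunit, and tapasin holds the empty class I molecule next to it. Interferons are well known inducers of these genes, and in a mismatched graft the class I molecules of the donor are themselves targets of the recipient's T cells.

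In total, 34874702 to 96803926 unique molecular identifiers (UMIs) were counted per kidney, and 6058 to 11739 cells per kidney passed the filters. Cells were clustered and named from marker genes, with the ending "-like" (PT, proximal tubule-like; LOH, loop of Henle-like; DCT, distal convoluted tubule-like; CD, collecting duct-like). Counts were summed per kidney and class, and n is the number of kidneys, 2 per group. Levels are given as CPM after edgeR's TMM scaling (TMM CPM) or as CPM without it (raw CPM), and are not divided by transcript length. Naive and transplanted kidneys differed in strain, age, gene list, and the set of cell barcodes in use (0 to 4 barcodes were shared between a naive kidney and a graft, against 18 to 35 between grafts). These differences and transplantation cannot be told apart. The H2 genes are polymorphic, B6 and BALB/c mice carry different H2 haplotypes, and reads from both were aligned to mm10, a B6 genome, so that reads from BALB/c alleles may have been lost or assigned to another gene. The counts do not tell which cells of a graft came from the donor or the recipient. H2-T22 counts are uncertain for a further reason, because the last 300 bases of its transcripts were 98.0% identical to those of H2-T10. The next highest identity, between H2-Q7 and H2-Q10, was 74.9%. Only the last 300 bases at annotated transcript ends were compared. The comparison therefore does not show that reads of the other heavy chains, such as H2-Q6 and H2-Q7 (49.4%), were told apart.

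B2m lies on chromosome 2 and the other 9 genes lie on chromosome 17 (mm10). H2-K1 (ENSMUSG00000061232) spans chr17:33996017-34000347 on the minus strand, H2-D1 (ENSMUSG00000073411) chr17:35262730-35267499, H2-Q4 (ENSMUSG00000035929) chr17:35379617-35385290, and B2m (ENSMUSG00000060802) chr2:122147686-122153083, the last 3 on the plus strand. As genes that changed together in the tubule, 5 are shown with the 200 bases before their RefSeq start, 5′ to 3′ on the strand of the gene (build GRCm38.p6). Capitals mark matches on either strand to 3 patterns: GAAANNGAA and GAANNGAAA, which are short forms of the element bound by interferon regulatory factors, and GGGGATTCC, a form of the site bound by NF-κB. The windows lie at chr17:34000348-34000547 on the minus strand for H2-K1, chr17:35262894-35263093 on the plus strand for H2-D1, chr17:35379417-35379616 on the plus strand for H2-Q4, chr17:36032702-36032901 on the minus strand for H2-T23, and chr2:122147487-122147686 on the plus strand for B2m. H2-K1 has a further start, and the first is shown. The RefSeq starts of H2-D1, H2-T23, and B2m lie inside the gene spans of the annotation used here for positions. Their windows therefore overlap those spans, that of B2m only at its last base.

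H2-K1: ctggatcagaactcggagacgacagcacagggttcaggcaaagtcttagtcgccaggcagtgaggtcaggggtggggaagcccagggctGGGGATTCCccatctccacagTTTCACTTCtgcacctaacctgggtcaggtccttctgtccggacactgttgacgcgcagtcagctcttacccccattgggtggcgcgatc

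H2-D1: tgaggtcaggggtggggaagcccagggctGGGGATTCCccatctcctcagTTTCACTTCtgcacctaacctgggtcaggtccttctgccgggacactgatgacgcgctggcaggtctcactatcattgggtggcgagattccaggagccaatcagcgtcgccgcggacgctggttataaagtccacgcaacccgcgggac

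H2-Q4: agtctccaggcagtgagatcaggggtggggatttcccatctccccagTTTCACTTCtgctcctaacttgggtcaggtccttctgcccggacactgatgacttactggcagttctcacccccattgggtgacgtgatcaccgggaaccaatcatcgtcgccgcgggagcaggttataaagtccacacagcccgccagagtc

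H2-T23: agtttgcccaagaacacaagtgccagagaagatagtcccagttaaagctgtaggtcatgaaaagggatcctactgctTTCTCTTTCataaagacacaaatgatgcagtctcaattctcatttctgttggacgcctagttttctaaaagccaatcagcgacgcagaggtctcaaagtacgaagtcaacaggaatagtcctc

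B2m: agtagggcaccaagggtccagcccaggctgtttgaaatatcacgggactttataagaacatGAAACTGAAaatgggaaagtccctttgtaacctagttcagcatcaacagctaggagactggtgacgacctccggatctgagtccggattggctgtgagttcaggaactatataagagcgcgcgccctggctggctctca

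In the 250 bases before the start, TTTCACTTC, which is GAANNGAAA on the other strand, was found before H2-K1, H2-D1, H2-Q4, H2-Q6, and H2-Q7. B2m held GAAACTGAA, which begins 139 bases before the start, and H2-T23 held TTCTCTTTC, 123 bases before it, both as matches to GAAANNGAA, as did H2-T22 with TTCACTTTC at 190 bases. GGGGATTCC stood just upstream of TTTCACTTC in H2-K1, H2-D1, H2-Q6, and H2-Q7. H2-Q4 held GGGGATTTCC at this place, which does not match these exact letters, and other forms of the site were not searched for. None of these patterns was found in the same window before Tap1 or Tapbp. Among 32851 mouse promoters of the same length, 7.13% held GAAANNGAA, 6.31% GAANNGAAA, and 0.213% GGGGATTCC. The first 2 patterns can overlap each other. The letters were chosen after these sequences had been read, so the matches are a description.

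Compared with naive kidneys, all 10 genes rose in each of the 4 tubular classes of rejecting kidneys. In PT cells the rise of the heavy chains ranged from 2.9-fold for H2-T22 to 123-fold for H2-Q6, and that of Tap1 was 80.8-fold. H2-Q6 was near the floor in naive PT cells, at 0.288 and 0.790 raw CPM, and passed the filter there through the grafts. The size of its rise is therefore uncertain. The classical heavy chains, which present peptide in almost all tissues, were already detected in naive PT cells. H2-K1 was at 58.2 and 85.2 TMM CPM in the naive kidneys, 1832 and 1650 with rejection, and 1457 and 1418 with tolerance. Every graft was above both naive kidneys, by 24.3-fold in rejecting kidneys (FDR = 1.02e-05) and 20.1-fold in tolerized kidneys (log2 4.33 ± 0.25 (SE), FDR = 1.34e-05). H2-D1 was at 75.7 and 60.3 TMM CPM in the naive, 1716 and 2925 with rejection, and 1841 and 2195 with tolerance. Its fold change was 34.1 in rejecting and 29.6 in tolerized kidneys, and its rejecting kidneys lay on either side of the tolerized kidneys.

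H2-Q4, H2-Q6, and H2-Q7, heavy chains of the H2-Q region of the MHC, were at or under 3 TMM CPM in naive PT cells. H2-Q4 was at 1.60 and 2.13 TMM CPM in the naive kidneys, 106 and 115 with rejection, and 42.7 and 49.1 with tolerance. Its fold change was therefore 59.7 in rejecting kidneys (log2 5.90 ± 0.23, FDR = 2.86e-06) and 24.8 in tolerized kidneys (log2 4.63 ± 0.22, FDR = 6.49e-06). H2-Q6 was at 0.343 and 0.914 in naive, 77.0 and 70.7 with rejection, and 38.9 and 41.3 TMM CPM with tolerance. For either gene the 3 groups were apart, and H2-Q7 had the same order, with mean levels of 1.82 ± 1.52 (SD, n = 2), 154 ± 3.25, and 92.5 ± 9.7 TMM CPM in the naive, rejecting, and tolerized kidneys.

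H2-T22 and H2-T23 belong to the H2-T region, and H2-T23 encodes Qa-1, the molecule that is recognized by CD94/NKG2 receptors of NK cells. Of the 10 genes, H2-T22 moved least in PT cells, from 41.5 and 37.1 TMM CPM in naive to 82.6 and 146 with rejection, and 68.8 and 103 with tolerance. Both naive kidneys were below the 4 grafts, and the log2 fold changes of 1.53 ± 0.30 (FDR = 0.00472) and 1.13 ± 0.29 (FDR = 0.021) were called. The call in tolerized kidneys was lost without either naive kidney or without the second tolerized kidney. H2-T23 was at 10.9 and 12.5 in naive, 138 and 445 with rejection, and 166 and 263 TMM CPM with tolerance, and the second kidney of each graft group was the higher one.

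The light chain B2m was at 168 and 260 TMM CPM in naive PT cells, against 1921 and 2973 with rejection, and 1979 and 2804 with tolerance. Its rise was 11.4-fold in rejecting kidneys (FDR = 1.78e-04) and 11.2-fold in tolerized kidneys (FDR = 2.28e-04), so that B2m rose with the heavy chains. For peptide loading, Tap1 went from 1.26 and 1.75 TMM CPM in the naive kidneys to 120 and 121 with rejection, and 92.6 and 65.0 with tolerance. Tapbp was at 18.2 and 17.8 in the naive, 231 and 178 with rejection, and 188 and 181 TMM CPM with tolerance. Rejecting and tolerized kidneys were apart for Tap1 and overlapped for Tapbp and B2m.

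**Figure D1:**
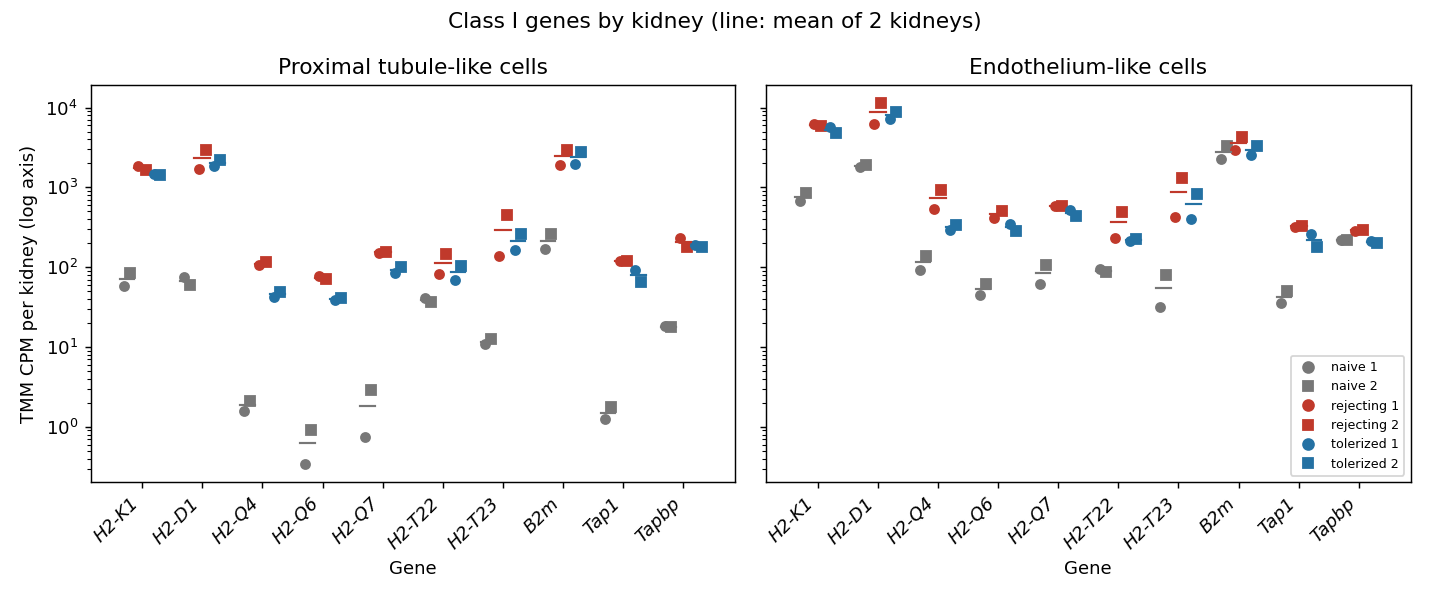
TMM CPM (log axis) of the 10 genes in proximal tubule-like (left) and endothelium-like (right) cells, with 1 point for each kidney and a line at the mean of the 2 kidneys of a group. In proximal tubule-like cells the naive points of all 10 genes lie under every graft, and in endothelium-like cells both of Tapbp and 1 of B2m lie among the grafts.

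Across the tubule the count was the same. In rejecting against naive kidneys, 10 of 10 genes were called higher in PT, LOH, DCT, and CD cells, where 22.5%, 8.93%, 12.6%, and 11.1% of all genes tested were called higher, and 8 of 10 in endothelium-like cells, where 8.1% were. In tolerized against naive kidneys the counts were again 10 of 10 in each tubular class and 8 of 10 in endothelium, beside 16.7%, 5.13%, 9.38%, 9.14%, and 6.38% of all genes. Both comparisons share the naive kidneys. The median log2 fold change of the 10 genes was 4.86 in PT, 5.42 in LOH, 5.02 in DCT, 4.09 in CD, and 2.73 in endothelium-like cells of rejecting kidneys. For tolerized kidneys it was 4.48, 5.07, 4.48, 3.82, and 2.23, whereas the median over all genes stayed between −0.001 and 0.068. H2-Q6 had no UMI among 2043315 in naive LOH cells, and with a floor of 3 counts over the group, rejecting kidneys were at least 105-fold higher and tolerized kidneys at least 80.3-fold higher. With H2-Q6 at this bound the LOH medians do not move, as it stays above them. H2-Q4 and H2-Q7 had at most 4 UMIs in a naive kidney in LOH cells, so these 3 genes passed the filter there through the grafts. Tap1 and H2-T23 in naive LOH cells were likewise low, at or under 3.84 raw CPM. So were H2-Q4, H2-Q6, and H2-Q7 in naive DCT cells (at or under 3.04). The same held for H2-Q6 and H2-Q7 in CD cells (at or under 2.93) and H2-Q6 in PT cells (0.288 and 0.790). These genes also passed the filter through the grafts, so the counts and medians of the tubular classes are a description.

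The segments differed in how far single genes moved. Tapbp rose by a log2 of 3.50 in PT cells of rejecting kidneys but by 2.01, 2.09, and 1.67 in LOH, DCT, and CD cells, where its naive level was higher (41.6 and 50.6 TMM CPM in LOH, 106 and 119 in CD cells). H2-Q4 rose by 5.90, 6.35, and 6.26 in PT, LOH, and DCT cells and by 3.79 in CD cells, in which the naive kidneys already had 13.6 and 20.1 TMM CPM. In naive LOH and DCT cells H2-Q4 was near the floor, at 3.07 and 0 and at 1.48 and 1.74 raw CPM. It passed the filter there through the grafts, so the sizes in these 2 classes are uncertain and a description. Differences between segments in the size of a change were not tested.

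**Figure D2:**
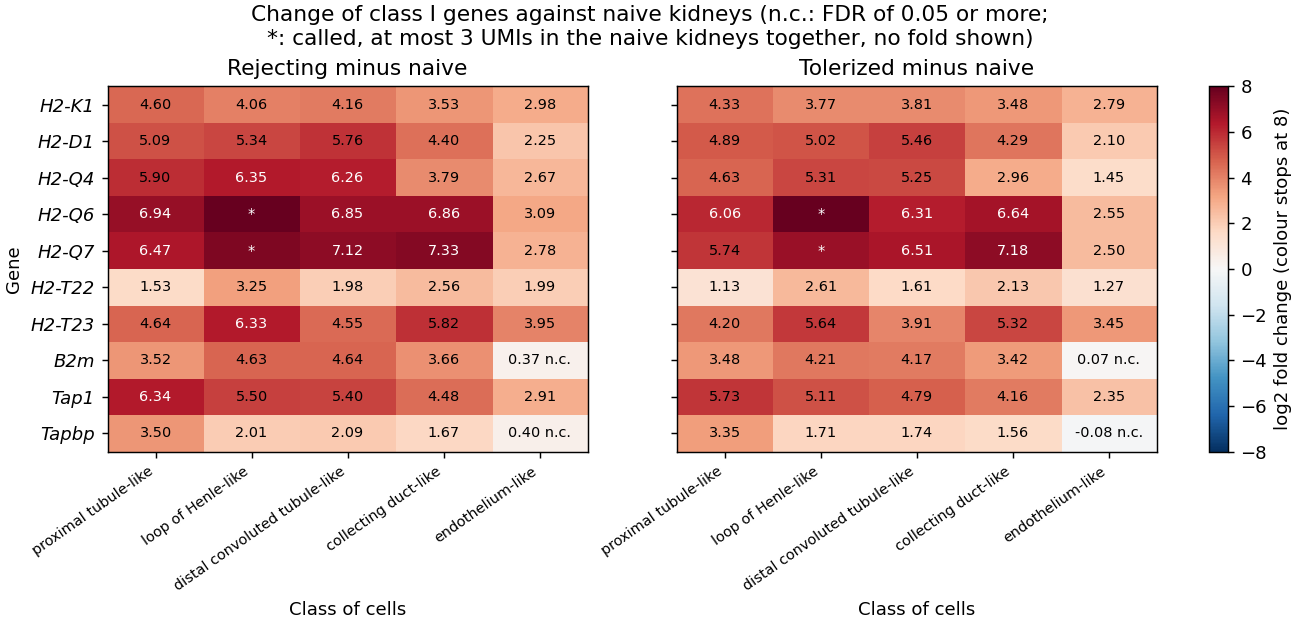
Log2 fold change of the 10 genes (rows) in 5 classes of cells (columns) against naive kidneys, for rejecting (left) and tolerized kidneys (right). All values are positive and called in the 4 tubular classes, and B2m and Tapbp are the genes not called in endothelium-like cells; asterisks stand for H2-Q6 and H2-Q7 in loop of Henle-like cells, for which the naive kidneys held at most 3 UMIs together.

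Endothelium, the lining of the vessels that a recipient's T cells meet first, started from other levels. H2-D1 was at 1811 and 1895 TMM CPM in naive endothelium-like cells, 6207 and 11400 with rejection, and 7148 and 8789 with tolerance. All 4 grafts were above both naive kidneys, by 4.75-fold (FDR = 0.00182) and 4.3-fold (FDR = 0.0028). H2-K1 rose 7.9-fold in rejecting and 6.93-fold in tolerized kidneys, and H2-T23, the gene with the largest change there, by a log2 of 3.95 and 3.45. B2m was at 2268 and 3298 in naive, 2935 and 4254 with rejection, and 2509 and 3329 TMM CPM with tolerance. The groups overlapped, and neither change was called (log2 0.37 ± 0.29, FDR = 0.418; 0.07 ± 0.29, FDR = 0.899). Tapbp was at 217 and 220 in naive, 281 and 296 with rejection, and 215 and 198 TMM CPM with tolerance, with log2 fold changes of 0.40 ± 0.23 (FDR = 0.255) and −0.08 ± 0.22 (FDR = 0.836). Both rejecting kidneys lay above the naive kidneys, and neither change was called. The tolerized kidneys lay below them on this scale, but on either side of them as raw CPM (217.0 and 188.9 against 212.3 and 209.8). Without either naive kidney, the endothelial calls of H2-T22 in both comparisons and of H2-Q4 in tolerized kidneys were lost, and that of H2-T23 in tolerized kidneys was lost without the first naive kidney.

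Naive and graft cells of a class did not always share a cluster. PT cells of naive kidneys and of grafts lay in different clusters, and 99.4% of naive DCT cells were in a cluster with 1.65% of graft DCT cells. Of naive endothelium-like cells, 60.6% were in a cluster led by Plat and Ehd3, which held 0.671% of those of grafts. For LOH, CD, and endothelium-like cells, a cluster with cells of all 6 kidneys was used by itself as well. Within these clusters, an alternative chosen after the data were seen, 10, 10, and 8 of the 10 genes were called in rejecting against naive kidneys, and 10, 10, and 7 in tolerized against naive kidneys. The share of all genes called in these fits is not given here. B2m and Tapbp were again the genes not called in endothelium, with H2-T22 added in tolerized kidneys.

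The rise was spread over the cells of the tubule. Thinned to 1000 UMIs per cell, PT cells held a median of 0 and 0 UMIs of the 10 genes together in naive kidneys, 6 and 9 with rejection, and 6 and 6 with tolerance. At this depth 74.0% and 68.5% of naive PT cells had no such UMI, against 1.42% and 0.68% with rejection, and 2.01% and 1.85% with tolerance. Too shallow for thinning were 425 and 103 PT cells with rejection, 91 and 27 with tolerance, and no naive cell, and without it the medians were 1 and 1, 20 and 41, and 43 and 74 UMIs. Naive endothelium-like cells held a median of 5 and 6 UMIs after thinning, against 15 to 25 in grafts. The summed raw CPM of the 10 genes ran from 282.7 to 507.1 over the PT clusters of naive kidneys and from 5894 to 13650 over those of grafts, without overlap.

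RNA of leukocytes was present in tubular libraries and moved with the groups. At least 1 UMI of 10 leukocyte markers was found in 1.31% and 4.79% of naive PT cells, 90.8% and 38.1% with rejection, and 38.7% and 35.4% with tolerance, so the first rejecting kidney stood apart. The summed level of the whole list of 13 leukocyte markers in PT cells was 0.0394% and 0.141% of that in leukocytes of the same naive kidney, 3.33% and 0.704% with rejection, and 0.45% and 0.281% with tolerance. Of the 13 markers, 1 was at 0 in PT cells of the first naive kidney and none in the others, and 12 rose in rejecting and 5 in tolerized against naive PT cells. Scaled by these shares, leukocyte RNA would account for 112 of the 2117 raw CPM of H2-K1 in PT cells of the first rejecting kidney (5.29%). The largest such estimate in any tubular class or endothelium of a graft was 13.5%, for H2-Q7 in the same PT cells. Single markers ran from 1.78% to 7.48% (Trbc2) of their leukocyte level in these cells. In LOH cells of the first rejecting kidney they ran from 3.45% to 14.1% (Cd79a). The estimates rest on the summed markers, so 13.5% is not an upper bound. In endothelium-like cells the sum was set mainly by Srgn, which endothelium also expresses. When cells with such a UMI were left out, the same counts of 10, 10, 10, 10, and 8 genes were called in both comparisons, with PT medians of 4.86 and 4.52. In that fit the first rejecting kidney had under 20 CD and endothelium-like cells, so the second stood alone for its group there. Without the first rejecting kidney, 48 of 50 tests over the 5 classes were called in rejecting against naive kidneys, as with it. Mitochondrial UMIs moved with the groups too, with median shares of 25.5% and 24.9% per cell in naive kidneys and 5.38% to 13.7% in grafts. These medians are over all cells of a kidney, and the mix of classes differed between groups. In PT cells, 1683 of 4811 and 1380 of 3779 naive cells had at most 20% of them. With rejection these were 1613 of 2815 and 713 of 1133, and with tolerance 2617 of 3523 and 1017 of 2240. Among cells of all classes with at most 20%, 48 and 46 of 50 tests were called in rejecting and tolerized against naive kidneys. The share of all genes called is not given for this fit, for that without leukocyte UMIs, or for that without the first rejecting kidney. In the last of these fits the second rejecting kidney stood alone for its group.

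The make-up of the heavy chain UMIs differed between naive and transplanted PT cells. H2-T22 gave at least 18.5% of the UMIs of the 7 heavy chains in naive PT cells and 1.86% to 2.65% in the grafts. H2-D1 gave 30.0% of them in the second naive kidney, 41.8% and 53.1% with rejection, and 49.7% and 52.6% with tolerance, and the first naive kidney lay just under the lowest graft. In naive endothelium-like cells H2-D1 gave 64.7% and 58.8% of these UMIs, above the 42.7% to 55.8% in grafts. These shares were not tested, and reads lost or moved between polymorphic H2 genes would change them.

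Between rejecting and tolerized kidneys no gene was called at an FDR of 0.05, although all 50 log2 fold changes in the tubular classes and endothelium were positive. Without the second rejecting kidney 36 of the 50 were positive. edgeR called 0 of 10 in each of the 5 classes, beside 0.0%, 0.103%, 0.0975%, 0.00914%, and 0.0% of all genes in PT, LOH, DCT, CD, and endothelium-like cells. At an unadjusted p under 0.05 there were 3, 3, 3, 1, and 1 of the 10 genes in these classes. All genes gave 1420 of 12641, 697 of 9753, 851 of 10261, 895 of 10935, and 548 of 8579. In CD and endothelium-like cells 1 of 10 was thus near the share of all genes. DESeq2 called 4 of the 50 tests, which were H2-Q4 in PT, DCT, and endothelium-like cells and H2-Q6 in PT cells. Without the filter on low counts edgeR called 7, which were H2-Q4 in all 5 classes and H2-Q6 and H2-Q7 in PT cells. The share of all genes called by DESeq2 or without the filter is not given here. Since values of the genes in 1 kidney move together and the classes come from the same 4 kidneys, the 50 tests are not independent. The grafts also differed in their clusters. A PT cluster led by Ubd and Nme2 held 1858 of the 2815 PT cells of the first rejecting kidney. It held 75 cells of the second, and 87 and 12 of the tolerized kidneys. A LOH cluster led by Cgnl1 and Wfdc15b held 301 and 33 cells with rejection, and 49 and 206 with tolerance. The part of these clusters in the differences was not tested.

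H2-Q4 showed the largest differences. In PT cells its level of 111 ± 6.15 (SD, n = 2) TMM CPM in rejecting kidneys was 2.41 times that in tolerized kidneys (45.9 ± 4.53), and the log2 fold change was 1.27 ± 0.17 (FDR = 0.21). Among PT cells without leukocyte UMIs it was 1.34 (FDR = 0.331). In LOH cells it was at 138 and 201 with rejection, and 85.8 and 79.6 TMM CPM with tolerance (log2 1.03 ± 0.26, FDR = 0.161). DCT cells had 124 and 148 against 60.9 and 73.8 TMM CPM (log2 1.01 ± 0.18, FDR = 0.0632), which was the lowest FDR of the 10 genes in any class. Both rejecting kidneys were above both tolerized kidneys in each of these classes, as they were in CD cells (221 and 240 against 112 and 147 TMM CPM, log2 0.83 ± 0.21, FDR = 0.212). The same held in endothelium-like cells, where H2-Q4 was at 541 and 928 against 290 and 339 TMM CPM (log2 1.22 ± 0.31, FDR = 0.453).

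In these 5 classes H2-K1, H2-Q6, and Tap1 were also without overlap in each, which is a description, since the share of all genes without overlap was not counted. For Tap1 in PT cells both rejecting kidneys, at 120 and 121 TMM CPM, were above 92.6 and 65.0 in tolerized kidneys (log2 0.61 ± 0.20, FDR = 0.302), and in DCT cells 182 and 198 were above 125 and 125 (log2 0.61 ± 0.18, FDR = 0.266). H2-Q6 and H2-Q7 had log2 fold changes of 0.88 ± 0.22 (FDR = 0.213) and 0.73 ± 0.33 (FDR = 0.461) in PT cells. The differences of H2-K1 were small, from 0.05 ± 0.24 in CD to 0.35 ± 0.19 in DCT cells. For H2-D1 and H2-T23, in contrast, the groups overlapped in each class. A p value above the threshold does not show that the groups were alike.

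**Figure D3:**
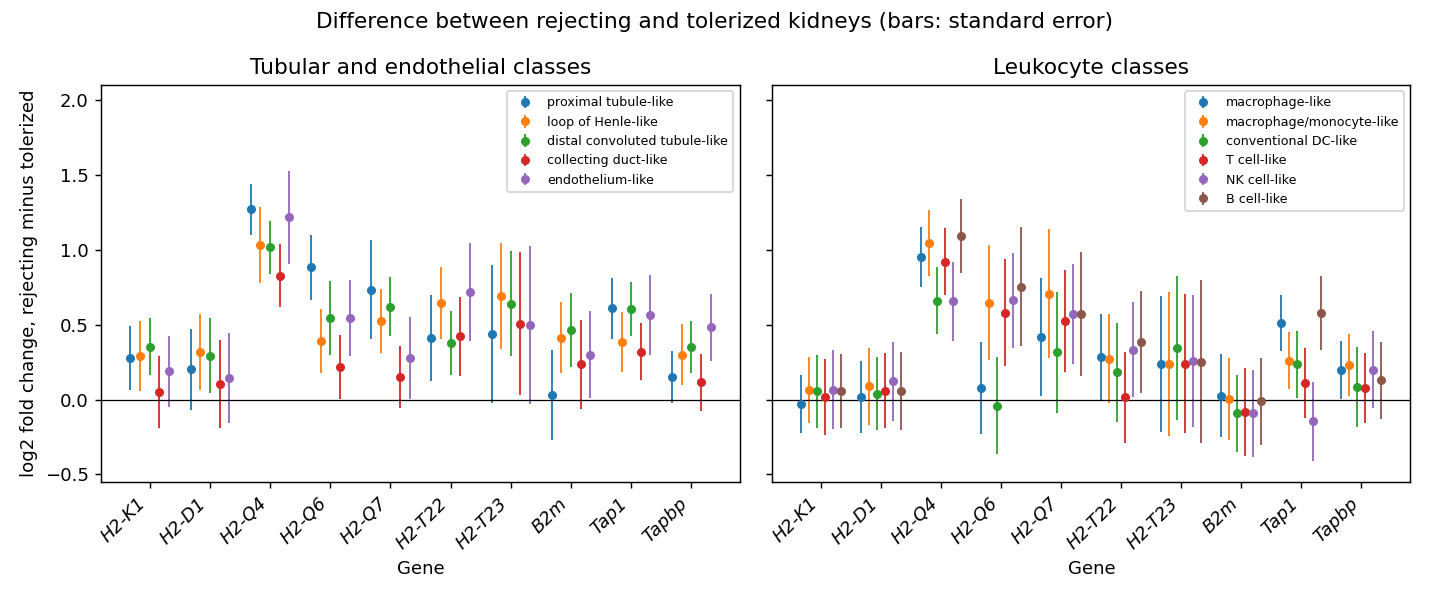
Log2 fold change of rejecting against tolerized kidneys for the 10 genes, with bars of 1 standard error and colours for the classes of cells, in tubular and endothelial classes (left) and leukocyte classes (right). None was called, and the 11 points of H2-Q4 lie between 0.655 and 1.27.

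Leukocytes in the grafts were compared in 6 classes. Again 0 of 10 genes were called by edgeR in macrophage-, macrophage/monocyte-, conventional dendritic cell (DC)-, T cell-, NK cell-, and B cell-like cells, beside 0.123% of all genes in DC-like cells and 0.0% in each of the others. The numbers at an unadjusted p under 0.05 were 2, 1, 1, 1, 1, and 2 of the 10 genes. All genes gave 644 of 11147, 593 of 9511, 434 of 8116, 940 of 11264, 429 of 5646, and 409 of 7175. DESeq2 called H2-Q4 in macrophage-like cells alone, and the share of all genes it called is not given here. H2-Q4 was higher in both rejecting kidneys than in both tolerized kidneys in all 6 classes. Over the 10 genes 53 of 60 log2 fold changes were positive, but 29 without the first tolerized kidney and 37 without the second rejecting kidney. In T cell-like cells it was at 269 and 212 against 124 and 130 TMM CPM (log2 0.92 ± 0.22, FDR = 0.369). Macrophage-like cells had 143 and 175 against 73.1 and 92.8 (log2 0.95 ± 0.20, FDR = 0.541), and B cell-like cells 229 and 203 against 92.6 and 110 TMM CPM (log2 1.09 ± 0.25, FDR = 0.519). Over all 11 classes, H2-Q4 was thus without overlap in 11, Tap1 in 9, and H2-D1 and H2-T23 in 0. These counts are a description, since the share of all genes without overlap was not counted and the classes come from the same kidneys. The median log2 fold change of ribosomal protein genes, which moved with these groups, was −0.204 to −0.434 in the 6 leukocyte classes, and their part in the result was not tested. A T cell-like cluster led by Tox and Cxcr6 held 1471 and 88 cells with rejection, and 36 and 40 with tolerance. Its part was not tested either.

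Other patterns in leukocytes followed single kidneys. H2-T23 was at 149 TMM CPM in T cell-like cells of the first and 437 in those of the second rejecting kidney, and at 180 and 318 in the first and second tolerized kidneys. H2-T22, H2-D1, and B2m were also higher in the second kidney of both groups in T cell-like cells, with B2m at 1373 and 2084 with rejection, and 1532 and 2128 TMM CPM with tolerance. H2-Q7, which is prominent in lymphocytes, was at 1316 and 1033 with rejection and at 541 and 1093 TMM CPM with tolerance in these cells. It was therefore the first tolerized kidney that was low, and this kidney was lowest for H2-Q7 in macrophage-like (118 against 264 to 316 TMM CPM) and B cell-like cells (181 against 450 to 559) as well. H2-Q7 gave 8.91% of the heavy chain UMIs of T cell-like cells there and 14.6% to 17.0% in the other 3 grafts.

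**Figure D4:**
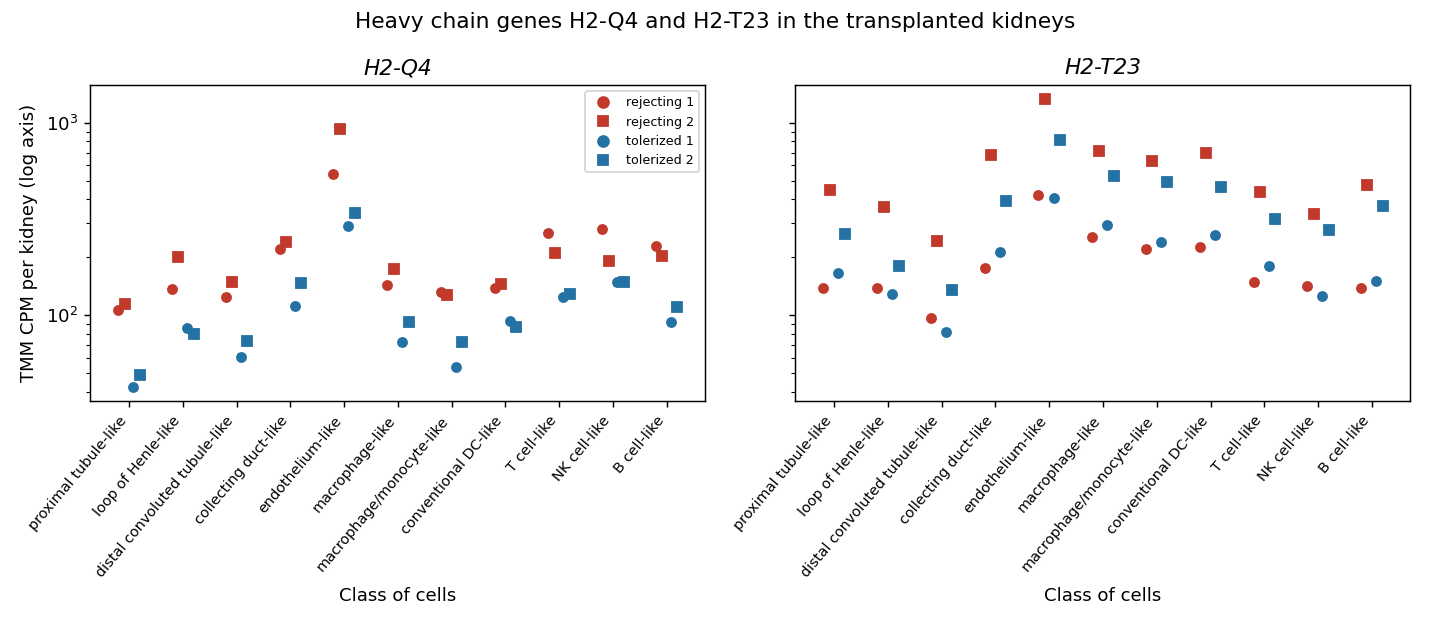
TMM CPM (log axis) of H2-Q4 (left) and H2-T23 (right) in 11 classes of cells of the 4 grafts, 1 point per kidney. The red points of H2-Q4 (rejecting) lie above the blue ones (tolerized) in each class, and for H2-T23 the squares (second kidneys) lie above the circles (first kidneys).

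Whether the difference between rejecting and tolerized kidneys was itself different in tubule and leukocytes was tested with each kidney as a block. None of the 10 genes was called for PT against T cell-like cells (0.0% of all genes called, 0 of 10 at an unadjusted p under 0.05) or PT against macrophage-like cells (0.0% of all genes, 1 of 10). Of all genes, 1102 of 12802 and 995 of 13041 had an unadjusted p under 0.05. DESeq2 called 0 of the 10 in both, and the share of all genes it called is not given here. For H2-Q4 the differences were 0.28 ± 0.31 (FDR = 0.877) and 0.32 ± 0.21 (FDR = 0.922) on the log2 scale, and for H2-Q6 against macrophage-like cells 0.74 ± 0.29 (FDR = 0.599).

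Naive kidneys held 24 to 96 cells in each of 4 leukocyte classes, and their levels are given as raw CPM without a test. B2m was at 3094 and 3619 in naive T cell-like cells and at 1480 to 2118 in those of grafts, and at 4048 and 5468 in naive macrophage-like cells against 2075 to 3373. In these classes both naive kidneys were above every graft, which is the opposite order from the tubule, whereas in B cell-like cells, at 1011 and 1698 against 946 to 1496, they overlapped. Naive and graft cells of a class again differed in their clusters. Of the 31 and 40 naive T cell-like cells, 28 and 32 were in a cluster led by Tnfsf8 and Tcf7, while the cluster led by Cd8a and Pdcd1 held 3 and 5 of them and 303 to 1468 cells of a graft. Of the 36 and 96 naive macrophage-like cells, 16 and 68 were in a cluster led by Gm49339 and Mmp13 that held no graft cell, and 2 and 1 were in the cluster led by Ccl8 and Ms4a7 that held 221 to 1095 cells of a graft. For the heavy chain H2-K1 the order was that of the tubule, with 1563 and 1022 in naive T cell-like cells and 2825 to 3930 in grafts, and 1026 and 1078 in naive macrophage-like cells and 2891 to 3418 in grafts. Tap1 was likewise lower in naive leukocytes, at 47.4 and 76.1 against 136 to 216 raw CPM in T cell-like cells. Differences between the 2 orders were not tested, since the naive leukocytes were few.

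**Figure D5:**
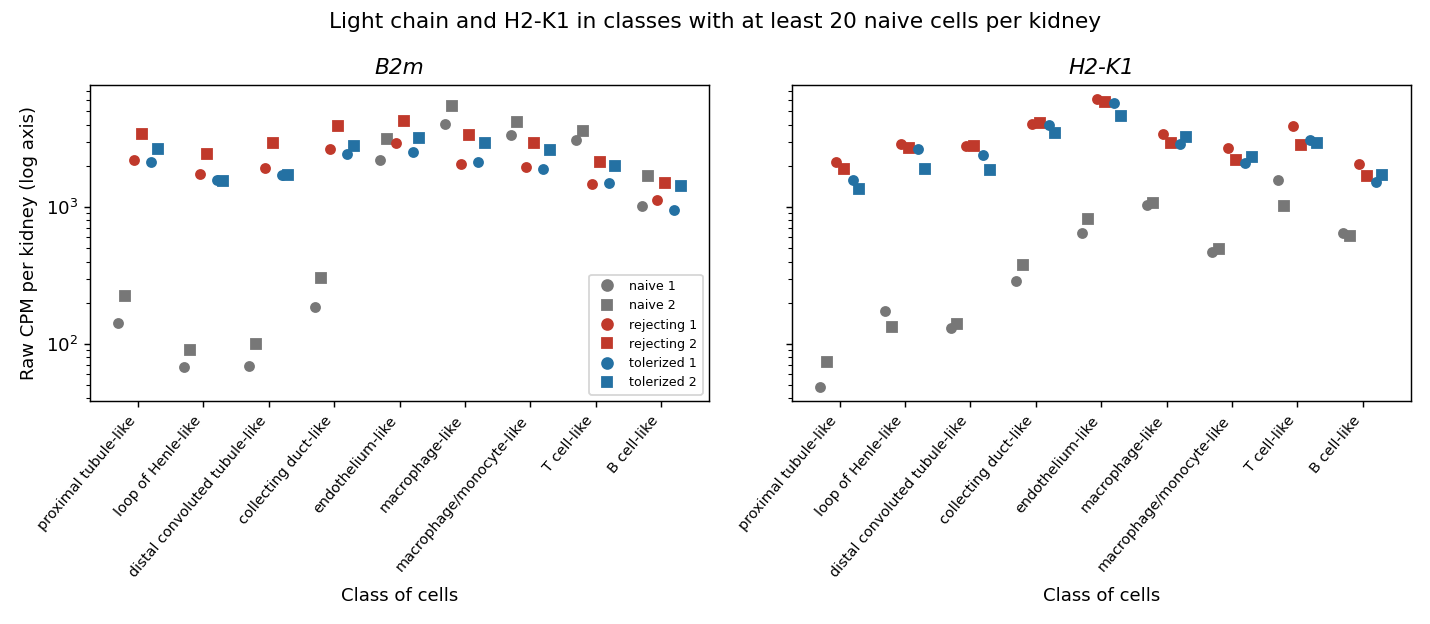
Raw CPM (log axis) of B2m (left) and H2-K1 (right) in the 9 classes with at least 20 cells in each naive kidney, 1 point per kidney. For H2-K1 the gray naive points lie lowest in each class, and for B2m they lie lowest in the 4 tubular classes and highest in the macrophage-, macrophage/monocyte-, and T cell-like classes.

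Over the 11 classes of the 4 grafts, endothelium-like cells had the highest mean level of H2-K1 (5580 ± 649 raw CPM, SD, n = 4), H2-D1 (8286 ± 2240), H2-Q4, H2-Q6, H2-T22, H2-T23, and B2m (3218 ± 730). The lowest H2-K1 levels were those of B cell-like (1743 ± 218) and PT cells (1737 ± 341), which did not differ beyond their spread. H2-D1 came down from endothelium to CD cells (4376 ± 1100) without overlap of the kidneys, and the ranges of its neighbours further down, from macrophage-like cells (3037 ± 531) to B cell-like cells (1522 ± 224), overlapped one with the next. For B2m the first places, endothelium-like, CD (2931 ± 652), macrophage-like (2623 ± 631), and PT cells (2616 ± 598), overlapped as well. H2-Q7 departed from this order, with NK cell-like (1084 ± 386) and T cell-like cells (1003 ± 367) first, endothelium-like cells next (528.5 ± 75.7), and PT cells last (136 ± 48.8). Tap1 was highest in conventional DC-like cells (354 ± 58.1) and lowest in NK cell-like cells (89.6 ± 9.04), and Tapbp was highest in CD cells (347 ± 40.3) and lowest in B cell-like cells (116 ± 21.0). The study reports that myeloid cells in such grafts came almost entirely from the recipient. The grafted kidneys were those of BALB/c donors, and all reads were aligned to a B6 genome. Reads of the heavy chains may therefore have been lost or moved to a different extent in different classes. The order of the classes for the heavy chains is thus a description, and the part of strain in it was not tested.

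Of 35 further genes of the pathway in 5 lists, 28 were tested in PT cells, and 23 rose and 2 fell in rejecting against naive kidneys (median log2 2.88, against 0.068 for all genes). In tolerized kidneys 21 rose and 2 fell. Of all genes tested in PT cells, 22.5% were called higher in rejecting and 16.7% in tolerized kidneys. All 5 genes of the immunoproteasome and its activator, which cut the peptides, rose in each tubular class in both comparisons, and 4 of 5 in endothelium-like cells. Psmb8, an immunoproteasome subunit, went from 2.85 ± 1.36 TMM CPM in naive to 826 ± 6.51 in rejecting and 578 ± 35.7 in tolerized PT cells (log2 8.21 and 7.69), and Psmb9, another subunit, rose by a log2 of 7.52 and 6.94. Psmb9 was at only 1.85 ± 1.48 TMM CPM in naive LOH and 2.23 ± 0.868 in naive DCT cells. It passed the filter there through the grafts, so the counts of these 5 genes are a description. The 2 genes that fell in PT cells were Psmb6 (log2 −0.55 and −0.63) and Psmb7 (−0.62 and −0.60), which encode subunits of the constitutive proteasome. The third subunit, Psmb5, was not called in rejecting kidneys (log2 −0.24, FDR = 0.396).

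Of 8 regulators and chains of the interferon-γ receptor pathway, 7 rose in PT, 4 in LOH, 6 in DCT, 5 in CD, and 5 in endothelium-like cells with rejection, and 6, 3, 4, 5, and 5 with tolerance. Nlrc5, the transactivator of class I genes, was at 0.152 ± 0.216 TMM CPM in naive, 18.2 ± 4.91 in rejecting, and 11.7 ± 0.693 in tolerized PT cells. Nlrc5 passed the filter there through the grafts, so the counts of this list are a description. Of 13 other class I genes, 6 were among the genes tested in PT cells. They had at most 9 UMIs in a naive kidney and passed the filter on low counts through the grafts, so their share of the counts above is no support for a direction. H2-Q10, known as a class I gene of the liver, was at 0 in naive LOH and DCT cells and at 35.2 ± 6.52 and 31.9 ± 2.25 TMM CPM in those of rejecting kidneys. In the other classes 16 of 25 (LOH), 18 of 25 (DCT), 18 of 26 (CD), and 13 of 27 (endothelium) pathway genes rose with rejection, and 13, 15, 17, and 12 with tolerance, with Canx falling in DCT cells of rejecting kidneys and H2-Q2 in CD cells of tolerized kidneys. Of all genes tested there, 8.93%, 12.6%, 11.1%, and 8.1% were called higher with rejection, and 5.13%, 9.38%, 9.14%, and 6.38% with tolerance. Some of the pathway genes passed the filter through the grafts in these classes too. Between rejecting and tolerized kidneys edgeR called 0 of these genes in any class.

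Over the 44 class-by-kidney sums of the grafts, the genes outside these lists with a pattern most like the mean of the 10 genes were Xaf1 (r = 0.842), Herc6 (0.837), Rheb (0.827), Ccdc85b (0.824), and Dync1li2 (0.821), among 6066 genes. Xaf1 and Herc6 are known as interferon-stimulated genes. The 44 points share 4 libraries, so the correlations are a description.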

How the data were processed

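Cells dissociated from each kidney were barcoded on the 10x platform. The authors deposited 1 matrix of raw UMI counts per kidney, made with CellRanger and aligned to mm10, without normalization. The headers of the grafts' matrices name CellRanger 3.0.1 and list 31053 genes, and those of the naive kidneys name no version and list 28692. The counting setup for strand was not given in the sources used here. The members and gene lists were chosen with earlier results of these data known.

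Here, barcodes were kept from 500 UMIs and 250 genes upwards if mitochondrial genes gave at most 50% of their UMIs, and the highest Scrublet scores were left out as doublets, up to 0.8% per 1000 barcodes (450 to 1256 per kidney). The median share of mitochondrial UMIs was 5.38% to 25.5%. Clusters (scanpy 1.11.5, leidenalg 0.10.2, 2500 variable genes, 40 components, 20 neighbors, resolution 1.5, no integration) were named from at least 3 markers. Clusters with fewer than 5 markers and none among their 10 leading genes stayed unnamed, a rule set after the clusters were seen, so that 1 led by Mcpt8 and 1 led by Adgre4 are in no class. The classes were rebuilt and may differ from the study's.

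Counts were summed per kidney and class (at least 20 cells), filtered with filterByExpr, scaled by TMM, and fitted with the quasi-likelihood test of edgeR 4.0.16 (R 4.3.3), 1 fit per class. All genes of a class were adjusted together by the Benjamini-Hochberg method, and an FDR under 0.05 was called. All 6 kidneys entered the tubular and endothelial fits, and the 4 grafts the leukocyte fits. The SE is the log2 fold change divided by the root of F. DESeq2 1.42.0 was an alternative. The test of rejecting against tolerized kidneys was also run on simulated data with 200 changed genes, in some of the classes. Its outcome is not given here, and the comparisons with naive kidneys were not run on simulated data. The study's supplement refers to 2 experiments, but the labels do not give the experiment of a kidney, so it could not enter a fit, and p values measure the spread between these kidneys. Described genes are the 10 members, the 4 pathway genes with the largest called change per comparison, and the 5 most alike by Pearson correlation of log2(CPM + 1) among genes with a mean of at least 20 CPM. Other pathway genes (Psmb5, Psmb6, Psmb7, Canx, and H2-Q2) were named after their values were seen, and 1 gene that the rule would name is not reported here. Promoters, RefSeq on GRCm38.p6, matched all 10 symbols.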

Additional observations from a re-analysis of the deposited data

Results flagged for a closer look

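In the comparison with naive kidneys, B2m had opposite directions in the tubule and in 3 of the 4 leukocyte classes with naive cells. Both rejecting kidneys were below both naive kidneys in macrophage-like cells (log2 ratio of the mean raw CPM −0.8), macrophage/monocyte-like cells (−0.63), and T cell-like cells (−0.9), and both tolerized kidneys were below them by −0.92, −0.74, and −0.95 in the same classes, whereas in the 4 tubular classes every graft was above both naive kidneys. In B cell-like cells the groups overlapped. Tapbp was below both naive kidneys in both tolerized kidneys in endothelium-like cells (−0.08 on TMM CPM) and T cell-like cells (−0.69 on raw CPM) and above them in the tubular classes, but in endothelium-like cells the groups overlapped as raw CPM. These differences between classes were not tested, and the naive leukocytes numbered 24 to 96 cells per class and kidney. Between rejecting and tolerized kidneys, the groups of 2 are too small for a search for outlying kidneys.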

How the results depend on the processing

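For rejecting against tolerized kidneys in tubule and endothelium, 0 of 50 tests were called, while DESeq2 called 4, a fit without a filter on low counts 7, and the replicate block 1 (H2-Q4 in DCT cells). The share of all genes called is not given for the alternative fits. In leukocytes, where 0 of 60 tests were called, DESeq2 called 1, the fit without a filter 3, and fits that left out 1 kidney between 0 and 5. The 5 came without the second rejecting kidney (H2-Q4 in T, NK, and B cell-like cells, H2-Q6 and H2-Q7 in NK cell-like cells), 3 without the second tolerized kidney (H2-Q4, H2-Q6, and H2-Q7 in macrophage/monocyte-like cells), and 1 without the first rejecting kidney (H2-Q4 in macrophage-like cells), and a lone kidney is there assumed to vary like the other group. The cause was not tested. Against naive kidneys, 48 of 50 tests were called for rejecting and tolerized kidneys, and leaving out 1 kidney gave 47 to 48 and 44 to 48, while at most 20% mitochondrial UMIs gave 46 for tolerized kidneys. In endothelium-like cells of tolerized kidneys, B2m (0.07 in all kidneys) was at −0.143 without the second tolerized kidney and between −0.2 and 0.354 over all fits that left out 1 kidney, with the lowest value without the first naive kidney, and Tapbp at 0.122 with doublets kept, none of them called. H2-Q4 stayed higher in rejecting than in tolerized kidneys in each class in 14 to 17 settings per class, with log2 fold changes between 0.376 (NK cell-like) and 1.55 (endothelium-like). Same-numbered kidneys of rejecting and tolerized groups had correlations of their deviations of −0.178 to 0.101 over genes, and the labels do not tie the numbers to an experiment, so whether the number pairs kidneys is not known. The block called 0 tests in leukocytes and 48 in each comparison with naive kidneys, and a crossed pairing, added after the data were seen, also called 0 in leukocytes. With 2 kidneys per group, small differences may not be detectable.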
